A study of Mus musculus with 23 samples.

Results

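The comparison described here set 8 adult mice carrying any of 3 substitutions of glycine 34 in histone H3.3 against 6 wild-type (WT) mice. All 14 animals were 10 weeks old and the tissue was cortex. The mutants were heterozygous, with 1 H3f3a allele substituted and 1 unchanged: 3 animals carried G34R (glycine to arginine), 3 carried G34V (glycine to valine) and 2 carried G34W (glycine to tryptophan). The labels spell the gene Hf3fa at this age, with genotypes +/G34R, +/G34V, +/G34W and +/+. All were labelled male except G34W replicate 2, labelled female, although its title begins with M like those of the males. The sex label was used as given. The sources used here name neither strain nor breeding. Animals were assigned by their genotype and age labels, and are 14 of the 22 animals and 15 of the 23 libraries of the series. A further 8 animals, 4 H3f3a G34R/+ and 4 H3f3a +/+ at postnatal day 7, served as separate samples for the same genes. In the pooled contrast each substitution had equal weight, so a pooled value is the mean of the G34R, G34V and G34W effects. The values of single substitutions given beside it share the same 6 WT animals.

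H3.3 is the replication-independent form of histone H3, placed into chromatin throughout the cell cycle and in cells that no longer divide, such as neurons. It is encoded by H3f3a and H3f3b. Glycine 34 lies in the N-terminal tail close to lysine 36, whose di- and trimethylated forms are read by the DNA methyltransferase DNMT3A, which is active in postnatal neurons. Substitutions of this glycine are known from brain and bone tumours and from neurodevelopmental disorders. In cortex, microglia are the resident macrophages and astrocytes are the supporting glia. Both change their expression programs in injury and degeneration.

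The codon that was changed is shown first, with 30 bases on each side, in both genes for H3.3, because the count of a gene does not tell its alleles apart. Capitals mark codon 34, counting from the residue after the initiator methionine. The sequences are reference coding sequences of GENCODE M21 on GRCm38, 5′ to 3′ on the minus strand of each chromosome. The H3f3a codon lies at chr1:180811822-180811824, in exon 2, and the H3f3b codon at chr11:116023905-116023907, also in exon 2.
H3f3a: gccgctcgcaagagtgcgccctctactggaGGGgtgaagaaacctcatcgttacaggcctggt
H3f3b: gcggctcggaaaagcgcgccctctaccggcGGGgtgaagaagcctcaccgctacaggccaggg
Both genes use the glycine codon GGG at this place. Their coding sequences have 408 bases each without the stop codon and differ at 95 of them.

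Total counts ran from 32.3 to 90.1 M (M, mega) per 10-week library, and 23811 to 25431 genes had at least 1 count. Markers of cortical excitatory neurons, interneurons, astrocytes, oligodendrocytes and microglia were present in all animals. The library of G34W replicate 1 stood apart: ribosomal RNA genes took 7.68% of its counts against 3.65 to 5.88% in the other 10-week libraries. Its summed level of choroid plexus markers was 7.81 CPM (counts per 1 M counts) against 135 to 846 CPM in WT. CPM of single genes are per 1 M counts of the scaled library size. Summed CPM of marker genes, here and below, are per 1 M total counts without that scaling. The share of counts from mitochondrially encoded protein genes split the libraries into a lower set (0.886 to 1.03%) and a higher set (1.12 to 1.36%). The lower set held all G34R animals with WT replicates 1 and 4 and 1 library of WT replicate 3, and the higher set held all G34V and G34W animals with the remaining WT libraries. Animal numbers in the titles fell into 5 runs, each with at least 1 WT animal. No run held more than 1 substitution: G34R was in runs 1 and 4, G34V in runs 2 and 3, and G34W in run 5. Both the sets and the runs were used below as blocks. With the sets as a block the 2 libraries of WT replicate 3 entered as separate samples. The p-values and counts of that fit thus treat 2 libraries of 1 animal as independent.

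H3f3a itself did not pass the test. Its level ran from 39.8 to 47.3 CPM in WT (median 42.3) and was 40.6, 43.2 and 39.3 CPM in G34R, 38, 41.5 and 39.1 CPM in G34V, and 43.4 and 36.7 CPM in G34W. The genotypes overlapped, with 4 of the 8 mutants below the lowest WT animal, and the pooled log2 fold change was -0.10 (SE 0.06, adjusted p = 0.364, quasi-likelihood F test of edgeR, Benjamini-Hochberg adjusted over all genes as throughout). H3f3b spanned 101 to 125 CPM in WT and 98.2 to 128 CPM in the mutants, with a pooled log2 fold change of -0.03 (SE 0.05, adjusted p = 0.815). None of the 11 tested genes of the histone H3 list passed. These counts sum both alleles, so they show neither the substitution nor the share of the substituted transcript.

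The pooled test, of the mean of the 3 substitution effects, called 1360 of 21274 genes tested (6.39%) at an adjusted p under 0.05. Of these, 524 (2.46%) were higher and 836 (3.93%) lower in the mutants. A call does not require a change in each substitution, and 64 of the higher and 58 of the lower genes differed among substitutions. Most changes were below 2-fold: 86 genes (0.404%) were at least 2-fold higher and 115 (0.541%) at least 2-fold lower. In 509 genes (2.39% of those tested) every mutant animal lay outside the WT range, above all 6 WT animals in 160 (0.752%) and below all 6 in 349 (1.64%). Without G34W replicate 1 the pooled test called 413 genes higher and 821 lower. In the libraries of the higher mitochondrial share alone, which hold G34V and G34W but no G34R, 106 genes were higher and 296 lower. In those of the lower share, with G34R as the only mutant, 488 were higher and 478 lower.

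**Figure D1:**
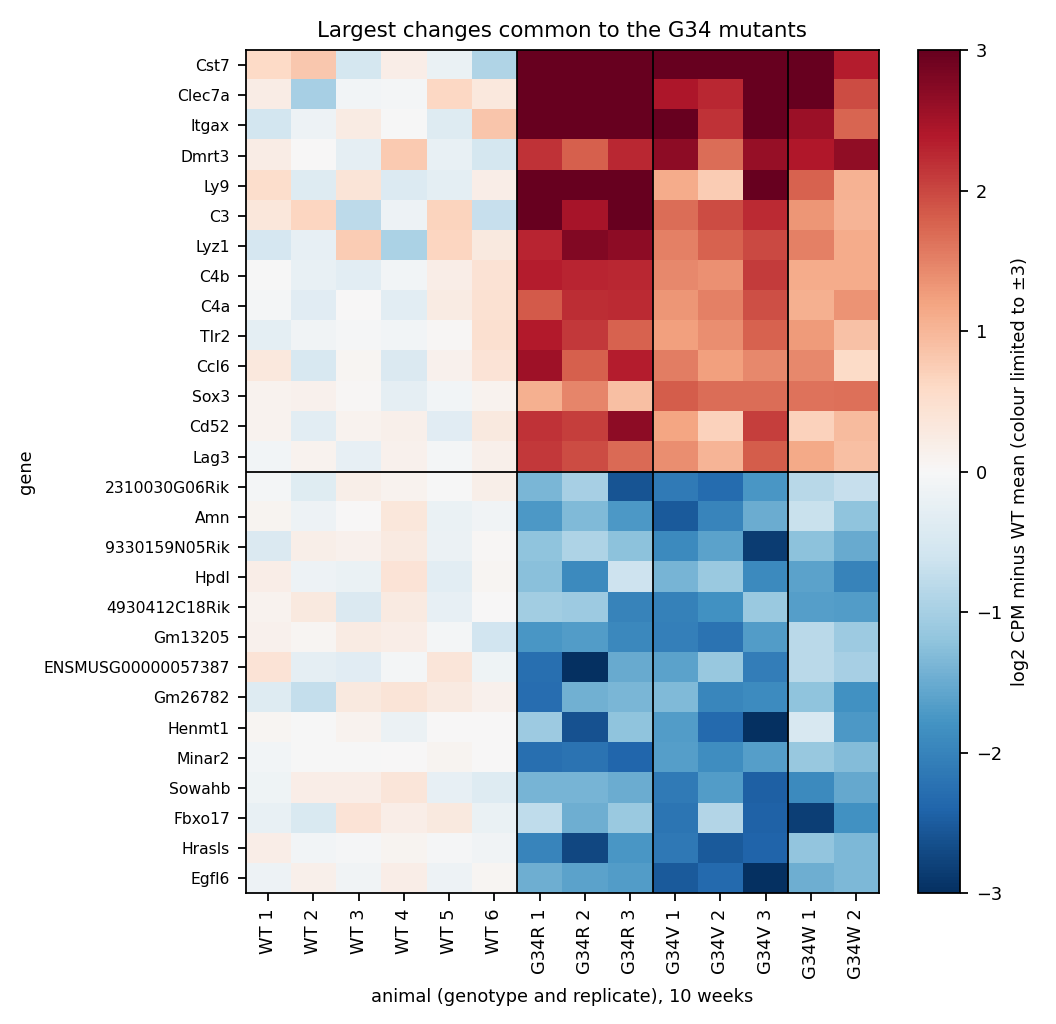
Log2 CPM minus the WT mean (colour, limited to ±3) in each of the 14 animals at 10 weeks (columns), for 14 of the 15 genes with the largest pooled rise and 14 of the 15 with the largest pooled fall among genes of at least 1 CPM whose mutant and WT animals do not overlap (rows). Cst7, Clec7a and Itgax are the top rows, with the strongest colour in the 3 G34R animals, while the lower rows are blue in all 8 mutants.

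Among the lowered genes, Minar2, a membrane protein related to the NOTCH2-binding MINAR1, had the smallest pooled p of the genes described here. It ran from 14.8 to 16.5 CPM in WT (median 15.6) and was 3.24, 3.35 and 2.96 CPM in G34R, 4.96, 4.27 and 4.95 CPM in G34V, and 7.12 and 6.29 CPM in G34W. The 4 genotypes did not overlap with each other, and the levels fell in the order WT, G34W, G34V, G34R. The pooled log2 fold change was -1.75 (SE 0.06, adjusted p = 2.67e-11, quasi-likelihood F test of edgeR), and the 3 substitutions differed (adjusted p = 0.00029 in the same fit). With the number runs as a block that difference did not pass (adjusted p = 0.0926).

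Hrasls, a phospholipid acyltransferase (GRCm38 chr16:29209695-29230531), spanned 16.8 to 20.8 CPM in WT and 2.73 to 8.03 CPM in the mutants, a log2 fold change of -1.91 (SE 0.11). Sowahb, an ankyrin repeat protein (chr5:93041123-93045022), ran from 15.3 to 25.8 CPM in WT. Its mutant levels were 7.55, 7.56 and 7.05 CPM in G34R, 4.54, 6.16 and 3.59 CPM in G34V, and 5.23 and 6.84 CPM in G34W. The highest mutant animal was thus far below the WT median of 20.4 CPM, and the pooled log2 fold change was -1.76 (SE 0.14). Egfl6, a secreted protein with EGF-like repeats (chrX:166523007-166585720), had the lowest pooled value of the genes of at least 1 CPM without overlap, -1.95 (SE 0.16), from 1.69 to 2.17 CPM in WT to 0.203 to 0.712 CPM in the mutants. For Sowahb and Egfl6 the difference among substitutions did not pass (adjusted p = 0.25 and 0.052 in the quasi-likelihood F test of edgeR). For Hrasls it passed in the same test (adjusted p = 0.0217), with -2.09, -2.36 and -1.27 in G34R, G34V and G34W. With the number runs as a block the Hrasls difference did not pass (adjusted p = 0.302).

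A set of changes was of nearly the same size in all 3 substitutions in the fit without blocks. Lamp5, a membrane protein of upper-layer pyramidal cells and of a class of interneurons (chr2:136052239-136069917), ran from 91 to 120 CPM in WT (median 108). It was 70.4, 71.2 and 66.2 CPM in G34R, 64.4, 71.6 and 62.8 CPM in G34V, and 68.1 and 70.9 CPM in G34W. All 8 mutants lay within 62.8 to 71.6 CPM, below every WT animal. With the number runs as a block the log2 fold changes were -0.76, -0.61 and -0.52 in G34R, G34V and G34W. The log2 fold change was -0.61 in G34R, -0.68 in G34V and -0.61 in G34W, and -0.63 pooled (SE 0.06, adjusted p = 1.82e-06, quasi-likelihood F test of edgeR).

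Scd1, the desaturase that makes monounsaturated fatty acids (chr19:44394455-44407879), ran from 124 to 156 CPM in WT. Its levels were 90.1, 99.6 and 90.8 CPM in G34R, 90.1, 97.1 and 87.2 CPM in G34V, and 72.4 and 110 CPM in G34W. No mutant animal overlapped WT, and the log2 fold changes were -0.61, -0.64 and -0.64. The G34W value joins 2 unlike animals: it was -0.98 with males only, which leaves replicate 1, and -0.38 without replicate 1. Plin3, a coat protein of lipid droplets, fell by 0.84, 0.82 and 0.72 on the log2 scale in G34R, G34V and G34W. Arpin, an inhibitor of the Arp2/3 complex, had log2 fold changes of -0.50, -0.56 and -0.51, and Plcxd1, a phospholipase C-like protein, of -0.72, -0.67 and -0.69. These genes were picked by a rule for the smallest range over the 3 substitutions relative to the pooled value, so their evenness is a description. With the number runs as a block the values were less even in some. Scd1 then had -0.50, -0.72 and -0.70, and Plcxd1 -0.85, -0.59 and -0.56. Plin3 had -0.81, -0.73 and -0.76, and Arpin -0.54, -0.63 and -0.44. None of them differed among substitutions with that block in the adjusted test.

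Among the raised genes were some developmental transcription factors. Dmrt3, known from spinal and forebrain patterning (chr19:25610301-25623921), ran from 0.11 to 0.329 CPM in WT, which was 72 counts over the WT libraries, and from 0.644 to 1.34 CPM in the mutants. Its log2 fold changes were 2.16 in G34R, 2.47 in G34V and 2.63 in G34W. With the number runs as a block they were 1.65, 2.82 and 3.22. Sox3, a factor of neural progenitors (chrX:60891366-60893430), ran from 0.461 to 0.62 CPM in WT and was 1.23, 1.62 and 1.08 CPM in G34R, 2.08, 1.89 and 1.89 CPM in G34V, and 1.82 and 1.85 CPM in G34W. For Sox3 the G34R animals were the nearest to WT, and the difference among substitutions did not pass (adjusted p = 0.27 in the quasi-likelihood F test of edgeR). Casz1, a zinc finger factor, went the other way, with a pooled log2 fold change of -1.47 (SE 0.13). The antisense gene Gm13205, which lies within Casz1, was lower too, and without a stated strand setting the reads of the pair cannot be told apart. Of the 32 tested genes of the developmental transcription factor list, 3 were higher and 2 lower, with a median log2 fold change of 0.02.

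**Figure D2:**
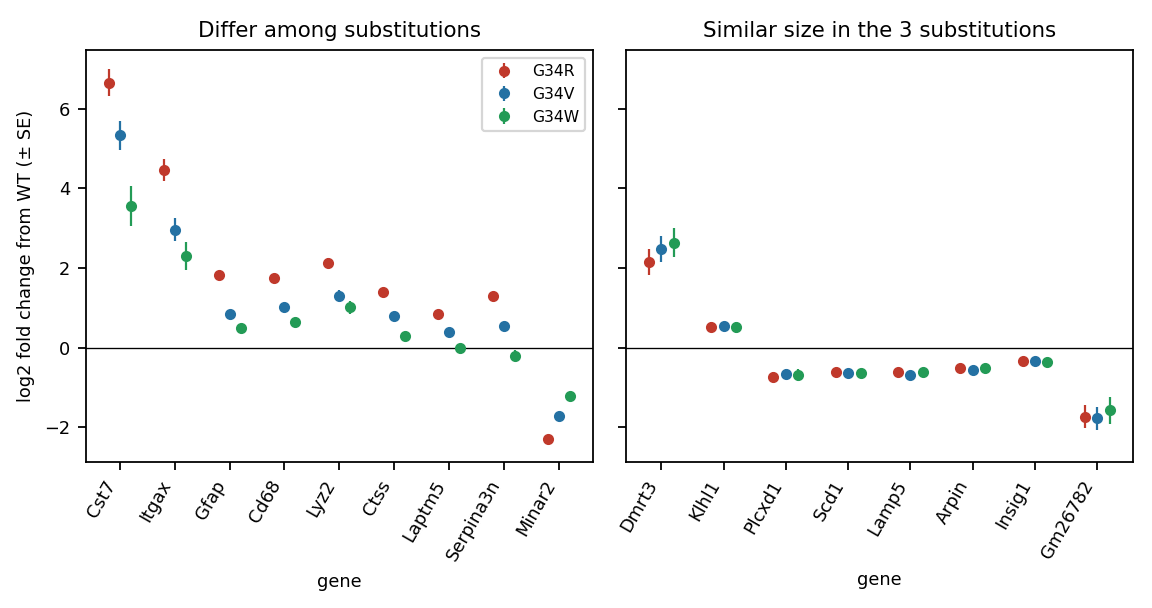
Log2 fold change from WT (vertical axis, ± SE from the fit without blocks) in G34R, G34V and G34W. On the left are 9 genes that differ among substitutions (Gfap, Ctss, Laptm5 and Serpina3n also with the number runs as a block). On the right are 8 that do not differ in that test. Of these Dmrt3 had 1.65, 2.82 and 3.22 with the number runs as a block. Gfap falls from 1.82 in G34R to 0.51 in G34W, while Lamp5 stays between -0.68 and -0.61. All 3 comparisons share the 6 WT animals.

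Genes of cholesterol synthesis had values of similar size in the 3 substitutions. Of 20 tested members, 12 were lower and none higher (background 3.93% lower), with a median log2 fold change of -0.20 against 0.00 over all genes tested. The medians were -0.25 in G34R, -0.18 in G34V and -0.18 in G34W, and no member differed among substitutions in the adjusted test. Insig1, the sterol sensor that retains the SREBP complex, ran from 74.9 to 91.5 CPM in WT. It was 59.7, 67.2 and 63.9 CPM in G34R, 59.6, 68.2 and 63.3 CPM in G34V, and 62.5 and 62.4 CPM in G34W. All mutants were below all WT animals, with a pooled log2 fold change of -0.34 (SE 0.05).

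Hmgcs1, which makes HMG-CoA, spanned 283 to 353 CPM in WT and 208 to 272 CPM in the mutants (log2 fold change -0.35, SE 0.06). Cyp51, lanosterol demethylase, had -0.28 (SE 0.05), with the highest mutant animal (63.2 CPM) inside the WT range of 59.9 to 72.8 CPM. In the higher mitochondrial set alone 2 members passed and in the lower set 6, each with fewer animals.

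Of 20 tested genes of myelin and mature oligodendrocytes, 11 were lower and none higher. The median log2 fold change was -0.40, and it was -0.24 in G34R, -0.51 in G34V and -0.44 in G34W. Ugt8a, which makes galactosylceramide, had a log2 fold change of -0.51 (SE 0.09), and Fa2h, which hydroxylates its fatty acids, had -0.50 (SE 0.09). In G34R, G34V and G34W the Ugt8a values were -0.23, -0.60 and -0.69. The highest G34R value of Ugt8a, 73.9 CPM, overlapped the lowest WT value of 73.3 CPM. The count of lowered myelin genes moved with the samples used: it was 16 without G34W replicate 1, 6 with males only, 7 with the number runs as a block, 5 in the higher mitochondrial set alone and 0 in the lower set, where G34R was the only mutant. No member differed among substitutions in the adjusted test. In bulk tissue, fewer cells of a type and less RNA per cell cannot be told apart, here and in the glial lists below. Of 12 oligodendrocyte precursor genes 2 were lower, Enpp6 (-0.52, SE 0.11) and Olig1 (-0.21, SE 0.06). The Olig1 call was lost with males only (-0.17, adjusted p = 0.0832 in edgeR), when the mutants were fitted as 1 group, and on leaving out any of WT replicates 1, 4 and 5, G34R replicates 2 and 3, G34V replicates 1 and 2, or G34W replicate 2.

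The raised genes were led by microglial and other immune genes, and here the size of the change differed between substitutions. Cst7, cystatin F, an inhibitor of lysosomal cathepsins that homeostatic microglia express little (chr2:150570415-150578944), had 14 counts in all WT libraries and ran from 0 to 0.0885 CPM there. It was 4.89, 3.97 and 3.78 CPM in G34R, 1.81, 1.42 and 1.85 CPM in G34V, and 0.691 and 0.333 CPM in G34W. The 4 genotypes did not overlap, in the order G34R, G34V, G34W, WT. The log2 fold changes were 6.65, 5.33 and 3.56, and the substitutions differed (adjusted p = 0.0018, quasi-likelihood F test of edgeR). That difference did not pass with the number runs as a block (adjusted p = 0.926) or with the mitochondrial sets as a block (adjusted p = 0.131).

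Itgax, the integrin CD11c (chr7:128129547-128150657), ran from 0.125 to 0.385 CPM in WT. It was 4.91, 4.72 and 4.21 CPM in G34R, 1.89, 1.03 and 2.03 CPM in G34V, and 1.38 and 0.76 CPM in G34W. G34R lay above both other mutants, while G34V and G34W overlapped. Clec7a, the fungal glucan receptor Dectin-1 (chr6:129461591-129472779), ran from 0.133 to 0.482 CPM in WT, with G34R at 8.82, 7.29 and 5.59 CPM, G34V at 1.79, 1.59 and 4.32 CPM, and G34W at 2.76 and 1.28 CPM. Its pooled log2 fold change was 3.40 (SE 0.31).

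Of 22 tested genes of the disease-associated microglia list, 11 were higher and none lower (background 2.46% higher). The median log2 fold change was 0.35 pooled, 1.01 in G34R, 0.26 in G34V and 0.43 in G34W, and 17 of the 22 had their levels in the order G34R, G34V, G34W (21.1% of all genes tested had that order). In the adjusted test 8 of the 22 differed among substitutions (1.19% of all genes tested did), and none differed between G34V and G34W. In the higher mitochondrial set alone, without G34R, 5 members passed. Cd68, a lysosomal membrane protein of macrophages, was at 4.35 to 5.11 CPM in WT. It was 17.2, 14.8 and 16 CPM in G34R, 10.9, 8.24 and 9.8 CPM in G34V, and 7.89 and 6.98 CPM in G34W. No genotype overlapped another, and the substitutions differed with an adjusted p of 0.00039 in the quasi-likelihood F test of edgeR. With the number runs as a block the difference did not pass (adjusted p = 0.0696).

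Homeostatic microglia genes had smaller values. Of 14 tested, 6 were higher and none lower, with a median of 0.22. Csf1r, the receptor for the growth factors that keep microglia alive, had 0.53, 0.32 and 0.23. Olfml3, a secreted protein marking microglia, had 0.79, 0.69 and 0.43 and did not differ detectably among substitutions (adjusted p = 0.37, quasi-likelihood F test of edgeR). The summed level of P2ry12, Tmem119 and Cx3cr1, which mark resident microglia, was 88.7 to 96 CPM of total counts in WT. It was 123 to 135 CPM in G34R, 91.9 to 116 CPM in G34V and 83.8 to 91.9 CPM in G34W. Scaling moved such values: Cx3cr1 in G34W averaged 44.4 CPM of total counts but spanned 46.3 to 48.8 CPM when scaled. Its WT values were 42.7 CPM and 39.5 to 45.7 CPM, and its G34R values 70.1 CPM and 61.7 to 71.5 CPM.

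Genes of phagocytosis and lysosome had the largest share of calls of the lists examined: 15 of 21 were higher and none lower. The median was 0.65 pooled and 1.07, 0.63 and 0.18 in G34R, G34V and G34W. Levels followed that order in 20 of 21. In the adjusted test 7 of the 21 differed among substitutions, and none differed between G34V and G34W. Lyz2, lysozyme of macrophages, ran from 4.84 to 6.59 CPM in WT and was 29, 22.3 and 21.3 CPM in G34R, 11.8, 13.2 and 16.3 CPM in G34V, and 13.3 and 9.36 CPM in G34W. All mutants were above all WT animals. Its near copy Lyz1 had a pooled log2 fold change of 1.87, and reads shared by the pair make both values uncertain.

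Ctss, the lysosomal protease cathepsin S (chr3:95526786-95556403), ran from 45.3 to 55 CPM in WT and was 152, 125 and 126 CPM in G34R, 82.8, 81.5 and 103 CPM in G34V, and 66.7 and 57.7 CPM in G34W. No genotype overlapped another, with log2 fold changes of 0.81 in G34V and 0.29 in G34W and a larger one in G34R. Laptm5, a lysosomal membrane protein of immune cells, had 0.86, 0.39 and 0.00: its G34W animals, at 19.9 and 18.6 CPM, lay inside the WT range of 18.2 to 21.1 CPM. Ctsz, cathepsin Z, likewise had 0.76, 0.21 and -0.02. In both genes the G34W value was near 0 although the pooled test was passed. In the higher mitochondrial set alone 4 of the 21 members passed.

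Complement genes came next. Of 18 tested, 9 were higher and none lower, with a median of 0.41 pooled and 0.58, 0.26 and 0.33 in G34R, G34V and G34W. In the adjusted test 4 of the 18 differed among substitutions, and none differed between G34V and G34W. In the higher mitochondrial set alone 4 passed. C3, the central component, ran from 0.257 to 0.772 CPM in WT and was 4.1, 2.81 and 4.46 CPM in G34R, 1.59, 1.93 and 2.37 CPM in G34V, and 1.24 and 0.997 CPM in G34W. C1qc, a chain of the recognition molecule C1q, ran from 24.6 to 30.7 CPM in WT and was 73.1, 61.3 and 58.6 CPM in G34R, 41.1, 37.2 and 48.3 CPM in G34V, and 37 and 28.4 CPM in G34W. In C3 all mutants were above WT, whereas in C1qc 1 of the 2 G34W animals fell inside the WT range. C4b, a gene for component 4, had log2 fold changes of 2.28, 1.66 and 1.10, and its near copy C4a 2.10, 1.61 and 1.21. These copies may share reads.

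Other immune genes among the 15 largest rises were Tlr2, a sensor of bacterial lipoproteins (pooled log2 fold change 1.59, SE 0.16), Lag3, an inhibitory receptor (1.48, SE 0.13), Ly9, a SLAM family receptor (2.40, SE 0.37), Cd52, a small surface glycoprotein (1.54, SE 0.21), and Ccl6, a chemokine (1.58, SE 0.19). In each the mutants lay above all WT animals. Markers of infiltrating leukocytes gave another picture. Of 18 such genes 10 had enough counts to be tested and 1 was higher, Ptprc (CD45, which microglia also express; 0.75, SE 0.14). Their summed level was 16.9 to 22.8 CPM in WT, 24.9 to 28 CPM in G34R, 19.3 to 24.6 CPM in G34V and 19.4 to 22.3 CPM in G34W, and 4 of the 18 were under 0.1 CPM in every animal. The part of blood-derived cells in the immune changes was not tested.

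Interferon-stimulated genes had their medians ordered G34R, G34V, G34W. Of 29 tested, 17 were higher and none lower. The median was 0.69 pooled, 1.14 in G34R, 0.65 in G34V and 0.24 in G34W, and 25 of 29 had their levels in that order. By animal, the list median relative to the WT mean was 1.26, 1.07 and 1 in G34R, 0.0799, 0.45 and 1.08 in G34V, and 0.244 and 0.216 in G34W, against -0.149 to 0.0988 in WT. G34V thus spread over nearly the whole range, and its replicate 1 lay inside WT. In the adjusted test 3 of the 29 differed among substitutions, and none differed between G34V and G34W. In the higher mitochondrial set alone, without G34R, none of the 29 passed. With limma-voom 10 passed.

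Lgals3bp, a secreted scavenger protein that binds galectins, ran from 6.44 to 8.64 CPM in WT and was 24.7, 19.2 and 19.4 CPM in G34R, 10.8, 11.2 and 19.2 CPM in G34V, and 12.1 and 10.4 CPM in G34W. Irf9, the DNA-binding subunit of the interferon-activated complex ISGF3, had log2 fold changes of 1.14, 0.65 and 0.08. Trim30a, a regulator of innate signalling, had 1.60, 0.72 and 0.38. All 3 passed the pooled test, with no overlap between mutants and WT in Lgals3bp.

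The promoters of this list were searched for the interferon-stimulated response element, to which ISGF3 binds. It was searched on both strands as 2 GAAA repeats with any 2 bases between them, and the window ran from 250 bases before to 50 bases after the RefSeq start (GRCm38.p6). Of 21 list members with an entry, 12 (57.1%) held it, against 495 of 13191 (3.75%) of all tested genes with an entry, 31 of 390 (7.95%) of those raised in the mutants and 20 of 609 (3.28%) of those lowered. Raised list members with the motif were Gbp2, Ifit3, Isg15, Oas1a, Rsad2 and Trim30a. The other members with the motif, Bst2, Ddx58, Gbp3, Ifit1, Ifitm3 and Stat2, did not pass the pooled test. Whether the motif goes with the rise within the list was not tested. The stretch of 80 bases around the match is printed for each, on the strand of the gene, with the match in capitals. Overlapping matches are joined.
Gbp2, chr3:142620568-142620647, plus strand: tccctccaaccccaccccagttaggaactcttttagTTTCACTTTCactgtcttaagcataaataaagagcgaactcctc
Ifit3, chr19:34583354-34583433, plus strand: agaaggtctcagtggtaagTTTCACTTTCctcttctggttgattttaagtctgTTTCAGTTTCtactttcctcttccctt
Isg15, chr4:156200847-156200926, minus strand: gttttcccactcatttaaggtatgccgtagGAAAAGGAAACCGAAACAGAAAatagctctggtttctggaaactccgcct
Oas1a, chr5:120907526-120907605, minus strand: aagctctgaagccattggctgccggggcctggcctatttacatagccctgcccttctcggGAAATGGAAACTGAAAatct
Rsad2, chr12:26456529-26456608, minus strand: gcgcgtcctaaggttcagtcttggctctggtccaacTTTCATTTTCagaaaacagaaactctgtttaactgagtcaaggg
Trim30a, chr7:104465194-104465273, minus strand: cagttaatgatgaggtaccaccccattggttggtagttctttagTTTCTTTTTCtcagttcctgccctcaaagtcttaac
These matches describe letters and not binding. Isg15, a ubiquitin-like protein, had a pooled log2 fold change of 1.07 (SE 0.23), Gbp2, a guanylate-binding protein, 0.69 (SE 0.13), and Rsad2, the antiviral enzyme viperin, 1.12. Ifit3 and Oas1a, an RNA-binding protein and an oligoadenylate synthetase, had 0.75 and 1.11. Both calls were lost with males only (0.82 and 0.85) and with limma-voom. Ifit3 stood at the threshold (adjusted p = 0.0498 in edgeR): its call was also lost without a filter on low counts, with sex-specific genes kept, with the mutants as 1 group and without any 1 of the 6 WT animals, and its G34W value was -0.02. These 6 genes were named for their promoters after their values were seen.

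Antigen presentation and chemokines moved in part. Of 15 class I genes 5 were higher and 1 lower. None of the class I genes was higher in the higher mitochondrial set alone, against 7 in the set with G34R. B2m, the class I light chain, had log2 fold changes of 0.92, 0.47 and 0.30, with all mutants above WT (48.9 to 88.4 CPM against 41.6 to 48.1 CPM). Psmb8, a catalytic subunit of the immunoproteasome, had 1.24, 0.48 and 0.49. Psmb10, another such subunit, went down in all 3 substitutions, by 0.54, 0.69 and 0.38 on the log2 scale, and no mutant animal (14.6 to 21.9 CPM) overlapped WT (22.8 to 30.5 CPM). None of the 6 tested class II genes passed. Of 14 cytokine and chemokine genes 6 were higher, among them Cxcl16 (1.14, SE 0.14) and Cxcl10 (2.02, SE 0.42), whose WT level was 0.07 to 0.354 CPM. Of the 14, 1 passed in the higher mitochondrial set alone.

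**Figure D3:**
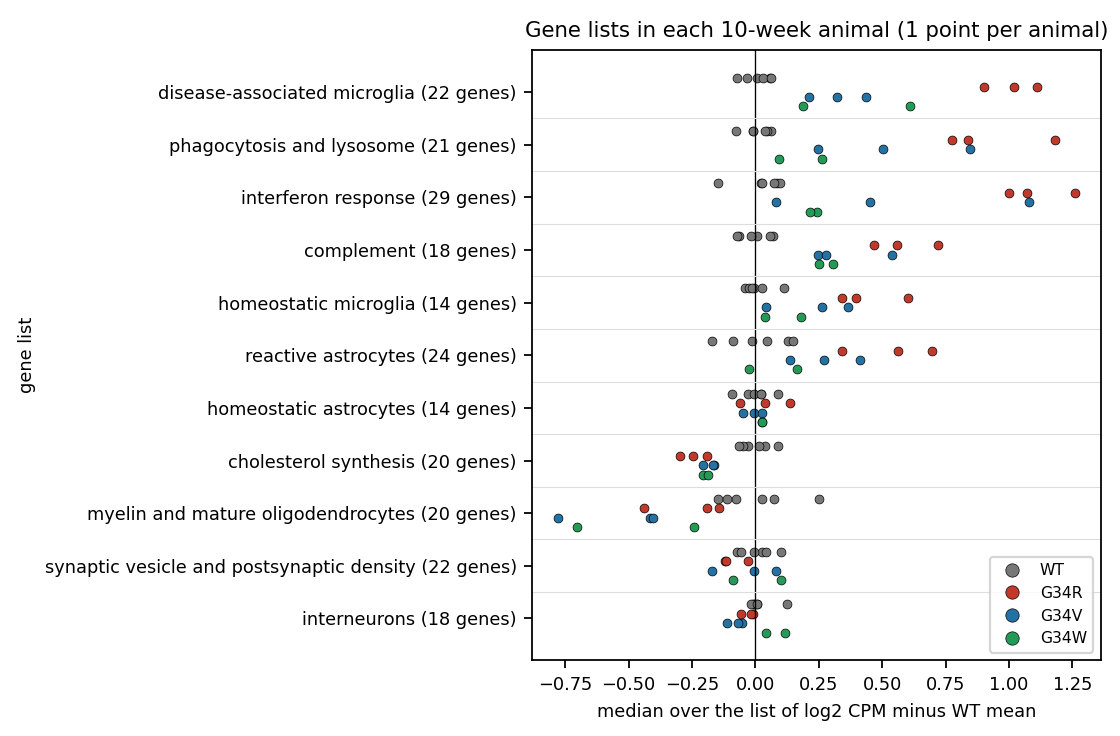
Median over each gene list of log2 CPM minus the WT mean (horizontal axis), 1 point per animal, for 11 lists (rows, with the number of genes tested). In the 5 immune lists at the top every G34R animal lies above every WT animal, and the G34V and G34W animals lie lower than G34R or overlap it. The cholesterol list sits between -0.296 and -0.165 in all 8 mutants, and homeostatic astrocyte and synaptic genes overlap WT.

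In astrocytes, Gfap, the intermediate filament that marks reactive cells (chr11:102887336-102900912), rose in all 3 substitutions to different heights. It ran from 107 to 136 CPM in WT (median 122) and was 442, 436 and 410 CPM in G34R, 205, 210 and 238 CPM in G34V, and 165 and 181 CPM in G34W. No genotype overlapped another. The log2 fold changes were 1.82, 0.84 and 0.51 (pooled 1.06, SE 0.06), and the difference among substitutions had an adjusted p of 1.5e-06 in the quasi-likelihood F test of edgeR. With the number runs as a block the values were 1.82, 1.02 and 0.37 (adjusted p = 9.36e-05), and with the mitochondrial sets as a block 1.93, 0.81 and 0.48 (adjusted p = 3.61e-04).

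Serpina3n, a secreted serine protease inhibitor, had 1.30, 0.54 and -0.20. Its G34W animals, at 8.36 and 10.7 CPM, did not rise above the WT range of 9.06 to 12.3 CPM, while G34R was at 28.5, 26.6 and 25.9 CPM. Osmr, the oncostatin M receptor, had 0.93, 0.82 and 0.51. Of 24 reactive astrocyte genes 8 were higher and 1 lower, with a median of 0.19, and 2 were higher in the higher mitochondrial set alone. None of 14 homeostatic astrocyte genes passed the pooled test, with a median of 0.02. The summed level of Aldh1l1, Slc1a3 and Aqp4, which mark astrocytes at large, was 619 to 697 CPM in WT, 731 to 791 CPM in G34R, 678 to 741 CPM in G34V and 635 to 676 CPM in G34W.

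Neuronal lists differed in their share of calls, read against the 2.46% higher and 3.93% lower of all genes tested. Of 22 synaptic vesicle and postsynaptic density genes none passed, and the median was -0.04. Of 18 deep-layer excitatory neuron genes 3 were lower. Fezf2, the selector of subcortically projecting neurons, had -0.45 (SE 0.09), and Hs3st4, a heparan sulphate sulphotransferase, -0.27 (SE 0.07). Hs3st4 had -0.24 with males only, and its call was lost with limma-voom and without WT replicate 4. Rprm, a cell cycle inhibitor marking layer 6, had -0.32 (SE 0.06) pooled and -0.24, -0.62 and -0.09 in G34R, G34V and G34W. Its substitutions differed (adjusted p = 0.0245, quasi-likelihood F test of edgeR), though not with either block. Both G34W animals lay inside the WT range of Rprm. The Rprm call was lost with the mutants fitted as 1 group. Of 15 upper-layer genes 2 were higher, Rorb (0.30, SE 0.06) and Pou3f2 (0.35, SE 0.08), and 1 was lower, Lamp5. Of 18 interneuron genes 2 were lower, Cort, the neuropeptide cortistatin (-0.67, SE 0.15), and Npy, neuropeptide Y (-0.24, SE 0.06). The Npy call was also lost with the mutants fitted as 1 group.

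Nefl, the light neurofilament chain, spanned 433 to 544 CPM in WT and 393 to 440 CPM in the mutants, with log2 fold changes of -0.23, -0.22 and -0.23. Its overlap with WT was limited to the lowest WT value. Ier2, an immediate early gene, was the single call among 19 such genes (-1.04, SE 0.21), although the list median was -0.59. WT replicate 4 had the highest list median, 0.901 above the WT mean, and its Ier2 level of 17 CPM was above the 6.84 to 9.22 CPM of the other WT animals.

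Other lists are read against the 2.46% higher and 3.93% lower of all genes tested. Of 39 regulators of histone H3 and H2A marks and of DNA methylation 3 were higher and 1 lower. Among the raised ones Cbx8, a chromobox subunit of Polycomb complexes, had 0.41 (SE 0.07), and Kdm2b, a subunit that brings Polycomb to CpG islands, 0.22 (SE 0.05). The lowered one was Tet1, an enzyme that oxidises methylcytosine (-0.23). Of 28 imprinted genes 2 were lower: Ndn, necdin (-0.90, -0.67 and -0.16 in G34R, G34V and G34W, the last 0.02 with males only), and Inpp5f, an inositol phosphatase (-0.19, -0.26 and -0.22).

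Of 16 tested germline-type genes 1 was higher and 3 lower. Mei1, a meiosis gene, had a pooled log2 fold change of 0.69 (SE 0.11) and Dkkl1, an acrosomal protein, -1.34 (SE 0.15). Of 20 endoplasmic reticulum stress genes 6 were higher and 1 lower, with a median of 0.10. Atf4, the transcription factor of the integrated stress response, was the lowered one (-0.36, SE 0.06), and Ddit3, its target CHOP, was among the raised ones (0.22, SE 0.05). Of 20 cell cycle genes 1 passed, Ccnd2, cyclin D2 (-0.53, SE 0.07). Of 14 endothelial genes 2 were lower, Esam (-0.33, SE 0.08) and Mfsd2a (-0.41, SE 0.10; call lost with limma-voom and without WT replicate 1 or 2 or G34W replicate 1), and none of 12 pericyte and fibroblast genes passed.

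Lists of tissue next to cortex moved between libraries more than between WT and the pooled mutants. None of 12 choroid plexus and none of 14 striatal genes passed the pooled test, with G34W medians of -1.26 and 0.30. Of 10 hippocampal genes 1 was lower, with medians of 0.10, -0.15 and -0.69 in G34R, G34V and G34W. Of 10 thalamic genes 1 was lower, Rgs16 (-1.08, SE 0.15), a regulator of G protein signalling. None of 13 mitochondrially encoded genes passed, although their medians were -0.32, -0.04 and 0.49 in the order G34R, G34V, G34W. The part of dissection in the differences between substitutions was not tested.

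The gradient over all called genes differed between the raised and the lowered ones. Among the 524 raised genes the median log2 fold change was 0.64 in G34R, 0.45 in G34V and 0.37 in G34W, and 247 (47.1%) had their group means ordered G34R, G34V, G34W away from WT. The same order held in 19.5% of all genes tested, taken in the direction of each pooled value. Among the 836 lowered genes the medians were -0.38, -0.48 and -0.38, and 188 (22.5%) had that order. G34R was the farthest from WT in 59.4% of raised genes but in 30% of lowered genes, where G34V was farthest in 37.1% and G34W in 32.9%. Over all genes tested these shares were 31.5% for G34R, 26.3% for G34V and 42.2% for G34W, the group of 2 animals.

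**Figure D4:**
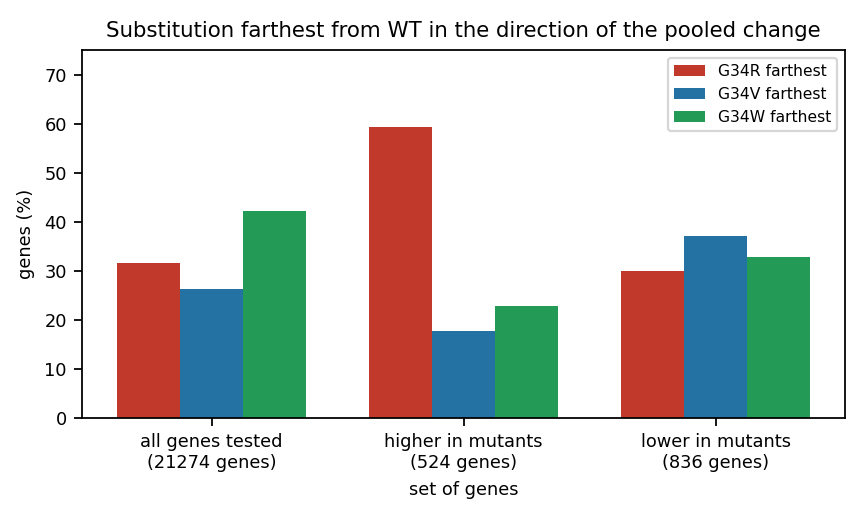
Percent of genes (vertical axis, from 0) for which each substitution lies farthest from WT in the direction of the pooled change, over all 21274 genes tested, the 524 raised and the 836 lowered genes. G34R is farthest in 59.4% of raised genes, and no substitution exceeds 37.1% in the lowered ones.

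The test of G34R = G34V = G34W called 254 genes (1.19%). Of these 64 were in the raised set (12.2% of it), 58 in the lowered set (6.94% of it) and 132 in neither. In 52 of the 64 raised genes the levels were ordered G34R, G34V, G34W, and in 24 of the 58 lowered genes they were ordered G34W, G34V, G34R. Between pairs, G34R and G34W differed in 400 genes (1.88%), G34R and G34V in 49 (0.23%), and G34V and G34W in 32 (0.15%). The pairs differ in precision because G34W had 2 animals.

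These counts depended on how neighbouring libraries were treated. With the number runs as a block the test among substitutions called 17 genes, 9 of them raised in the pooled test, with C4b, Laptm5, Serpina3n, Ctss and Gfap among the 17. With the mitochondrial sets as a block it called 62, and without G34W replicate 1 it called 169. The pooled comparison kept 1280 of its 1360 calls with the number runs as a block, which called 1647 in all. By the coefficients, the order G34R, G34V, G34W away from WT held for 47.7% of raised and 22.1% of lowered genes without blocks. It held for 19.4% of all genes tested. With the runs as a block these shares were 46.2%, 29.3% and 21.3%, and with the sets 46.4%, 25.7% and 19.1%. The share of raised genes thus moved less than that of lowered genes. Substitution and mitochondrial set cannot be told apart between G34R and the other mutants except through the WT libraries of each set. Likewise, differences between substitutions cannot be told apart from differences between number runs except through the WT animals of each run.

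Some pooled calls came from 1 substitution. Gpr179, an orphan receptor known from the retina (chr11:97332109-97352077), was at 8.17, 7.43 and 7.34 CPM in G34V and at 0.327 to 0.771 CPM in the other mutants, against 0.321 to 0.797 CPM in WT. AA465934, a processed transcript (chr11:83291699-83294632), was at 7.12, 6.81 and 5.94 CPM in G34V and at most 1.24 CPM elsewhere. Rpl26, a ribosomal protein of the large subunit (chr11:68901583-68906989), was at 40.9, 40.1 and 40.7 CPM in G34V and at 64.2 to 82.3 CPM in every other animal. All 3 lie on chromosome 11, and the G34V animals did not overlap any other animal in them. Rec8, a meiotic cohesin subunit (chr14:55618037-55625395), was at 0.0993, 0.429 and 0.365 CPM in G34V, against 1.39 to 2.54 CPM in WT.

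Fbxo27, an F-box protein that binds glycoproteins, had log2 fold changes of -0.32 in G34R, -1.29 in G34V and -1.17 in G34W. Cdkl1, a CDC2-like kinase, had -1.51, -1.01 and -0.39, an order like that of Minar2. In Fbxo27 G34R was nearest to WT, and in Cdkl1 it was farthest, so the lowered genes did not share 1 order.

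At postnatal day 7, in the separate 4 H3f3a G34R/+ and 4 H3f3a +/+ animals, 63 of 20451 genes passed (0.308%), 23 higher and 40 lower. Leaving out any 1 of the 8 animals brought the count to between 5 and 39. Of the 524 genes raised at 10 weeks 495 were tested at day 7: 9 passed as higher and none as lower, with a median log2 fold change of 0.12. Of the 836 lowered genes 820 were tested: 23 passed as lower and none as higher, with a median of -0.07, against 0.00 over all genes tested at day 7. At an unadjusted p under 0.05 the raised genes gave 112 higher and 6 lower, and the lowered genes 26 higher and 168 lower, against 779 higher and 806 lower among all 20451. At day 7 the disease-associated microglia list had a median of -0.03 with no call. The homeostatic microglia list had 0.42 with 3 of 14 higher, and the phagocytosis and lysosome list 0.29 with 2 of 21 higher.

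The 32 genes past both tests were read out after their values were seen. Phyh, phytanoyl-CoA hydroxylase, which starts the alpha oxidation of branched fatty acids, had a log2 fold change of -0.99 at day 7 (SE 0.06, adjusted p = 5.37e-05) and -1.03 at 10 weeks in the pooled mutants, by the quasi-likelihood F test of edgeR. Its adult levels were 30.7, 25.6 and 25.9 CPM in G34R, 24.4, 26.6 and 24.7 CPM in G34V, and 54.3 and 32.4 CPM in G34W, all below the 57 to 68.3 CPM of WT. Fah, the last enzyme of tyrosine breakdown, had -1.05 at day 7 in G34R and -0.80 at 10 weeks in the pooled mutants (-0.55 in adult G34R). Minar2 likewise had -0.78 and -1.75 (-2.29 in adult G34R). H1f0, the linker histone of resting cells, had -0.35 at day 7 and -0.53, -0.47 and -0.40 in adult G34R, G34V and G34W.

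Among the 9 raised at both ages were Cx3cr1, Adcy7, Fcrls, Laptm5, Itgam, Ptgs1, Bin2 and Il34. The day-7 values here are of G34R alone and the 10-week values of the pooled mutants. Cx3cr1, the fractalkine receptor of microglia, had a log2 fold change of 0.45 at day 7 and 0.38 at 10 weeks (0.67 in adult G34R). Itgam, the integrin CD11b, had 0.71 and 0.31 (0.42 in adult G34R). Il34, a ligand of CSF1R made by neurons, had 0.85 and 0.20, the adult call being lost with limma-voom and without WT replicate 4 or G34W replicate 1. Cst7 was not tested at day 7 for lack of counts, and Gfap had -0.13 there (adjusted p = 0.921, quasi-likelihood F test of edgeR). H3f3a passed as lower at day 7 (-0.25, adjusted p = 0.0428 in the same test).

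**Figure D5:**
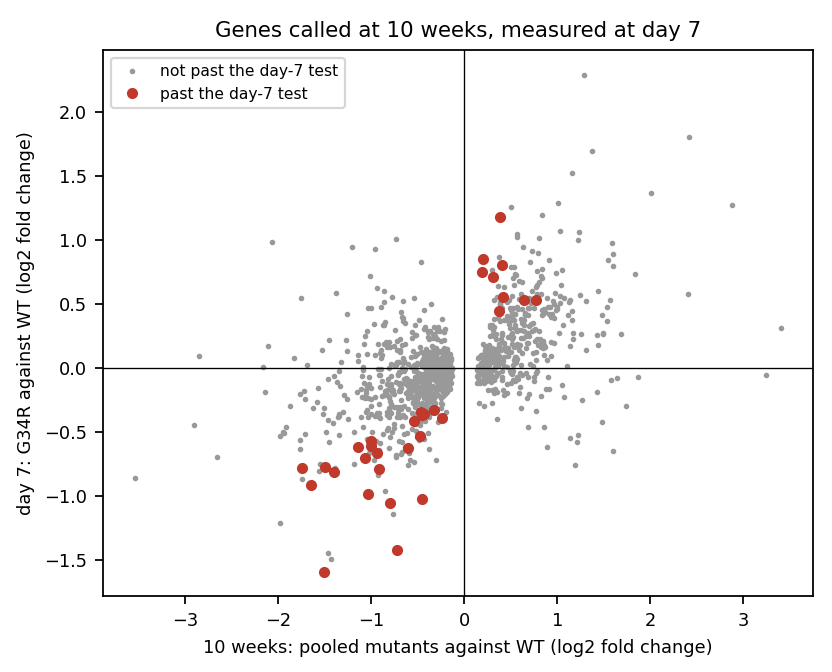
Log2 fold change at day 7 in G34R against WT (vertical axis) over that at 10 weeks in the pooled mutants against WT (horizontal axis) for the 1315 genes called at 10 weeks and tested at day 7, 1 point per gene. The 32 red points passed both tests, 23 at the lower left and 9 at the upper right.

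Promoter composition differed between the sets, given as a description. The median number of CpG dinucleotides in that RefSeq window was 8.5 in the 390 raised genes with an entry, 17 in the 609 lowered ones and 20 in all 13191 tested genes with an entry. The 150 bases before the start are printed for 3 raised and 3 lowered genes, chosen after their values were seen, with CpG in capitals.
Cst7, raised, chr2:150570265-150570414, plus strand: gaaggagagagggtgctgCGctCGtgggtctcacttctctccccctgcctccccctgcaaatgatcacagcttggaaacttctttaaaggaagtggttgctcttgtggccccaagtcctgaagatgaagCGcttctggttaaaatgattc
Itgax, raised, chr7:128129400-128129549, plus strand: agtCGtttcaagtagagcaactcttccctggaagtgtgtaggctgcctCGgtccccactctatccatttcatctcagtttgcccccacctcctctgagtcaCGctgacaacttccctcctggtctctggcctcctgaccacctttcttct
Dmrt3, raised, chr19:25610387-25610536, plus strand: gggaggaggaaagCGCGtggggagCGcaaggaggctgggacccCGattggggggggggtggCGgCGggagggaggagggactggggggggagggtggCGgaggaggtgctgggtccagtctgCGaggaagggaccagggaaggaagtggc
Sowahb, lowered, chr5:93045023-93045172, minus strand: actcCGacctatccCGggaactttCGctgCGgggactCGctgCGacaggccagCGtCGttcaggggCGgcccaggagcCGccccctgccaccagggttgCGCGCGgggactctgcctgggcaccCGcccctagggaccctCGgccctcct
Egfl6, lowered, chrX:166585717-166585866, minus strand: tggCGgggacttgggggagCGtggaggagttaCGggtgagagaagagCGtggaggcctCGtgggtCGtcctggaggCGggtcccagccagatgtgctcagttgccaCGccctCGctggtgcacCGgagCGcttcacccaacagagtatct
Lamp5, lowered, chr2:136052189-136052338, plus strand: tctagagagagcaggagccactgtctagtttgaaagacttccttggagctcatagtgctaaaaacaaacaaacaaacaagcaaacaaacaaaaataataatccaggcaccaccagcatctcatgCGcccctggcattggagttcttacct
Cst7 and Itgax hold 3 CpG each in these stretches and Dmrt3 holds 8, while Sowahb holds 15, Egfl6 11 and Lamp5 1. The sterol regulatory element, searched on both strands, was in none of the 14 cholesterol genes with an entry (0.243% of all) and an E-box of the lysosomal CLEAR type, searched likewise, in none of 18 phagocytosis and lysosome genes (0.637% of all), which says only that these letters are not in those windows.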

How the data were processed

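Gene counts were measured by RNA sequencing of cortex after ribosomal RNA depletion, per the labels' protocols. The authors deposited raw counts per gene. Build mm10, featureCounts 1.4.4, STAR 2.3.0e, Trimmomatic 0.32 and bedtools 2.27.1 are named, per the submitters' processing notes. The sources used here give neither annotation release nor strand setting. Of 39017 genes 37693 matched GENCODE M21. The 2 libraries of WT replicate 3 were summed, except in the fits with or within the mitochondrial sets. With the sets as a block the 2 entered as separate samples, which counts 1 animal as 2. Replicates were separate animals.

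Counts were fitted with edgeR 4.0.16 (TMM, filterByExpr, robust quasi-likelihood, Benjamini-Hochberg, threshold 0.05), without chromosome Y, Xist and Tsix, and the day-7 fit had the sex label as covariate. CPM of single genes use TMM library sizes, and summed CPM of markers use total counts without TMM scaling. DESeq2 1.42.0 and limma 3.58.1 were alternatives. The fit was tested on simulated data.

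Members and lists were chosen with earlier results of these data known. Named genes were the 15 largest changes per direction without overlap at 1 CPM or more, the 8 per direction with the smallest p among substitutions, the 6 most even per direction and up to 3 per list by pooled p. A few of these are not reported here. Others named were chosen after their values were seen, as were the fits within a mitochondrial set and the left-out day-7 animals.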

Additional observations from a re-analysis of the deposited data

Results flagged for a closer look

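Of 218 groups of animals checked for the genes named and 70 for list medians, 12 and 5 held an animal set apart from its group by a gap that chance gives in about 1 of 20 groups. WT replicate 1 had 33.3 CPM of Plcxd1, 11 CPM of Enpp6 and 57.8 CPM of Olig1, each the highest in WT, and an interferon list median of -0.149. WT replicate 2 had 19.2 CPM of Tet1, 65.3 CPM of Ccnd2 and an interneuron median of 0.126. WT replicate 4 had 17 CPM of Ier2 and an immediate early median of 0.901. WT replicate 5 was low in Rprm at 32.5 CPM, and WT replicate 6 was high in Tlr2 at 1.43 CPM and low in Ddit3 at 14.9 CPM, with 0.468 CPM of Mx1. Among the mutants, G34R replicate 1 was low in Hmgcs1 at 208 CPM, G34W replicate 1 had 54.3 CPM of Phyh, the highest mutant level, and an upper-layer median of -0.218 and G34V replicate 1 a germline-type median of -0.454.

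The effects of the 3 substitutions against the same WT animals differed in 254 genes by the test among substitutions.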

How the results depend on the processing

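The pooled count of 1360 stayed within 1.5 times under another scaling, filter, weighting or grouping, DESeq2 (1914), limma-voom (1199) and both blocks. It ran from 1068 to 1473 when each animal was left out, with 400 to 600 higher and 651 to 873 lower. It left that range in the libraries of the higher mitochondrial share alone (402 in all, 106 higher and 296 lower), and in those of the lower share the lowered genes were 478. Both of these have fewer animals.

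The test among substitutions (254) gave 1105 with DESeq2, 480 with the sex label as covariate, 471 with males only, 17 with number runs as a block, 62 with mitochondrial sets as a block and 99 to 471 on leaving out each animal. G34R against G34V (49) gave 265 with DESeq2, 212 with limma-voom, 4 with runs, 11 with sets and 13 to 129 on leaving out. G34R against G34W (400) gave 1113, 90, 19, 35 and 118 to 628 in that order. G34V against G34W (32) gave 302, 12, 14, 76 and 10 to 302, with 309 with the sex covariate and 302 with males only. The day-7 count (63) was 5 to 39 on leaving out each animal. The cause was not tested.

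H3f3b changed sign to 0.002326 with the sets as a block, to 0.10 in the lower set and to 0.007441 without WT replicate 4 (range -0.0594 to 0.007441 on leaving out each animal). In the lower set, which holds G34R only, Rec8 had 0.0596, Rpl26 0.005973 and Hspa5 -0.0196. When the mutants were fitted as 1 group, 11 of the named genes lost their call, Ctsz, Serpina3n, Gpr179, Rec8 and Rpl26 among them.

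The labels give animal numbers and no replicate number shared between groups, so animals could not be matched one to one. The runs of neighbouring numbers served as the block. With 2 G34W animals, 1 of them set apart and the other labelled female, small differences of G34W were not detectable.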
